A study of Mus musculus with 2 samples.

Results

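Binding of Hnf4a was examined at 10 genes of the intestinal epithelium, taken by name from the 21887 protein-coding genes of the RefSeq annotation. They comprise 3 regulators, Cdx1, Cdx2 and Isx, and 7 enterocyte genes, Vil1, Fabp2, Cdh17, Alpi, Sis, Slc5a1 and Krt20. The cells were iHepCs, hepatocyte-like cells made from C57BL/6J mouse embryonic fibroblasts of WT genotype by retroviral expression of Foxa2 and Hnf4a, and kept in a medium with insulin, dexamethasone (100 nM), nicotinamide and the growth factors HGF and EGF (20 ng/ml each). The labels give the cell type as fibroblast and the tissue as embryo, after the starting cells. Chromatin integration labelling (ChIL-seq), in which an antibody-bound probe guides Tn5 transposase to DNA near the target protein, was done on 2 replicates of this 1 group, described as biological replicates, whose peak names carry the same lot of cells. No uninfected fibroblasts, control library or expression data were analysed here, and the antibody is not stated to tell introduced from endogenous Hnf4a. The deposited lists held 21283 summits, the 1-bp centres of peaks, for replicate 1 and 24097 for replicate 2. Each summit has a score by the authors, read here as −log10 q because the lowest scores (2.04 and 2.01) lie just above the 2 that the q threshold in the peak names gives. A higher score is then stronger evidence for a peak. Scores had medians of 7.32 in replicate 1 and 6.67 in replicate 2, and read depth is unknown.

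Hnf4a is a nuclear receptor of liver, intestine, kidney and pancreas. In the gut it acts in enterocytes together with the caudal-type homeobox factor Cdx2, which sets intestinal identity in the embryonic endoderm and is absent from normal adult liver. Enterocytes, the absorptive cells of the villus, carry a brush border of microvilli with digestive enzymes and transporters in its membrane.

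A summit was counted for a gene if it lay inside it or within 50 kb of either end, and summits of both replicates within 100 bp of each other were paired and called shared. By this rule 6 of the 10 genes had a shared pair, 2 of 3 regulators (Cdx1 and Cdx2) and 4 of 7 enterocyte genes (Vil1, Fabp2, Cdh17 and Krt20). Of all 21887 protein-coding genes 47.9% had one, so the count of 6 is near what such wide windows hold elsewhere. Of the pairs of genes with a start in the table used here, the one nearest to its gene's start was that of Cdx2, and the pairs of Vil1 and Cdh17 included one inside each gene. No summit of either replicate was found in the windows of Sis and Slc5a1.

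The sequences below are RefSeq promoter windows of GRCm38.p6, from 250 bases before to 50 bases after the gene's start and printed 5′ to 3′ on the gene's strand. The Cdx2 window, chr5:147307200-147307499 on the minus strand, is shown because it was the only window with a shared pair among the 8 of the 10 genes with an entry in the table used here. Its capitals mark the 20 bases from the replicate 1 summit, 28 bases before the start, to the replicate 2 summit, 9 bases before it.
Cdx2: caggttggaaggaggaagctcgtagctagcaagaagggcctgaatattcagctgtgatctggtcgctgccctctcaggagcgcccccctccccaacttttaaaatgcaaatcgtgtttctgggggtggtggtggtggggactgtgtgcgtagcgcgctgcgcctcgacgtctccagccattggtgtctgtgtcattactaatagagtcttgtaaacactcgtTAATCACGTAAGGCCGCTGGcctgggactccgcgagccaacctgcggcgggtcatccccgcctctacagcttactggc

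Of 21263 such windows of protein-coding genes, 4.66% held a shared pair. The windows of Alpi (chr1:87101557-87101856, minus strand), Fabp2 (chr3:122894822-122895121, plus strand) and Sis (chr3:72967814-72968113, minus strand) are shown because they held motif matches but no summit of either replicate. Capitals mark the matches.
Alpi: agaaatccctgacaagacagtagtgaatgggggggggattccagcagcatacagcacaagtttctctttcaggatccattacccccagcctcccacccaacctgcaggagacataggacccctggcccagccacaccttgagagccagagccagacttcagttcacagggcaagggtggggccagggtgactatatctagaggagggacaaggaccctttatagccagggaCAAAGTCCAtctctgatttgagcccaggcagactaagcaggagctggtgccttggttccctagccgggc
Fabp2: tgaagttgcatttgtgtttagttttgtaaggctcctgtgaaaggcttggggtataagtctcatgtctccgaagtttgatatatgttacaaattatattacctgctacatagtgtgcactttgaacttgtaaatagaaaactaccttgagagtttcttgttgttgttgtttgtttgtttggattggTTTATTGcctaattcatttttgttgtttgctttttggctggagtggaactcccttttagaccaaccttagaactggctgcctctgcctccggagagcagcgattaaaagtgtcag
Sis: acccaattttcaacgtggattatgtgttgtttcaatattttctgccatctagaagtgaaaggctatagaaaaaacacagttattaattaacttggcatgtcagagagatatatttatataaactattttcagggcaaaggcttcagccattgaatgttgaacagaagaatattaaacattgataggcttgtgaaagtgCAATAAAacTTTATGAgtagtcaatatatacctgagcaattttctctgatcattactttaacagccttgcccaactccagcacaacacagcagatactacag

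Matches were searched on both strands for HNF4 (CAAAGTCCA, CAAAGTTCA and CAAAGGTCA), FOXA (TGTTTAC) and CDX (TTTATGG, or in its place TTTATTG, or else TTTATGA) motifs, of which the HNF4 motifs share their opening letters, as do the CDX motifs. The Alpi window held CAAAGTCCA from 19 to 11 bases before the start, and was the only one of the 8 with an HNF4 match. Over all 32851 windows of the table, 1.33% held any of these HNF4 motifs. The Cdx2 window held no HNF4 match, but held the FOXA motif on the opposite strand from 40 to 34 bases before the start, upstream of both summits. It was the only one of the 8 with this motif, which 3.65% of all windows held. A CDX match lay from 65 to 59 bases before the start of Fabp2, and the Sis window held one from 52 to 46 and another from 43 to 37 bases before its start. These were the only 2 of the 8 windows with a CDX match, against 10.5% of all windows. A match is a stretch of letters and was not tested as a binding site.

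Cdx2, which directs endoderm to an intestinal fate, had the most replicate 1 summits of the 10 genes, 5, with 3 in replicate 2 and 2 shared pairs. The gene spans 147300900 to 147307249 on chromosome 5, on the minus strand. The pair at its start scored 12.8 at 147307277 in replicate 1 and 8.08 at 147307258 in replicate 2, within the top 17.5% and 36.3% of their lists. The other pair lay 1932 and 1924 bp beyond the gene's far end, at 147298968 and 147298976, and scored 6.94 in replicate 1 and 7.85 in replicate 2. Both pairs thus scored above the median of all summits in replicate 2, and the pair at the start did so in replicate 1 too. Shared pairs of the whole lists had higher medians, 9.93 in replicate 1 and 9.61 in replicate 2. Only the pair at the start exceeded these, and only in replicate 1. Summits found in replicate 1 only lay 90 bp before the start of the neighbouring gene Pdx1 (8.43), which encodes a homeobox factor of pancreas and duodenum, 7854 bp before that start (7.78), and inside Flt3 (5.64), a receptor kinase of blood progenitors. A summit found in replicate 2 only lay inside Urad (4.71).

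Cdx1, a homeobox factor close to Cdx2, had 1 shared pair that was remote from the gene. The gene spans 61018862 to 61036199 on chromosome 18. The summits were at 60993353 in replicate 1 (score 7.39) and 60993389 in replicate 2 (10.1), 25509 and 25473 bp from Cdx1. They were closer to Slc6a7, a proline transporter of brain that lies between them and Cdx1, at 2023 and 1987 bp. Inside Cdx1 replicate 2 had a summit of score 2.25, a value that 729 summits of that list had, at rank 96.6% from the top, and replicate 1 had none.

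Isx, a homeobox factor that represses vitamin A uptake and conversion in enterocytes, had no shared pair. Its window around 74873174 to 74893506 on chromosome 8 held no other protein-coding gene. Replicate 1 had no summit there, and the nearest lay 140.5 kb away. Replicate 2 had 1 summit inside the gene, at 74881110, with a score of 3.19 that 995 summits of its list (4.13%) had. The nearest shared pair was 140.5 kb from the gene, beside Tom1, and scored 17.8 in replicate 1 and 6.29 in replicate 2.

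**Figure D1:**
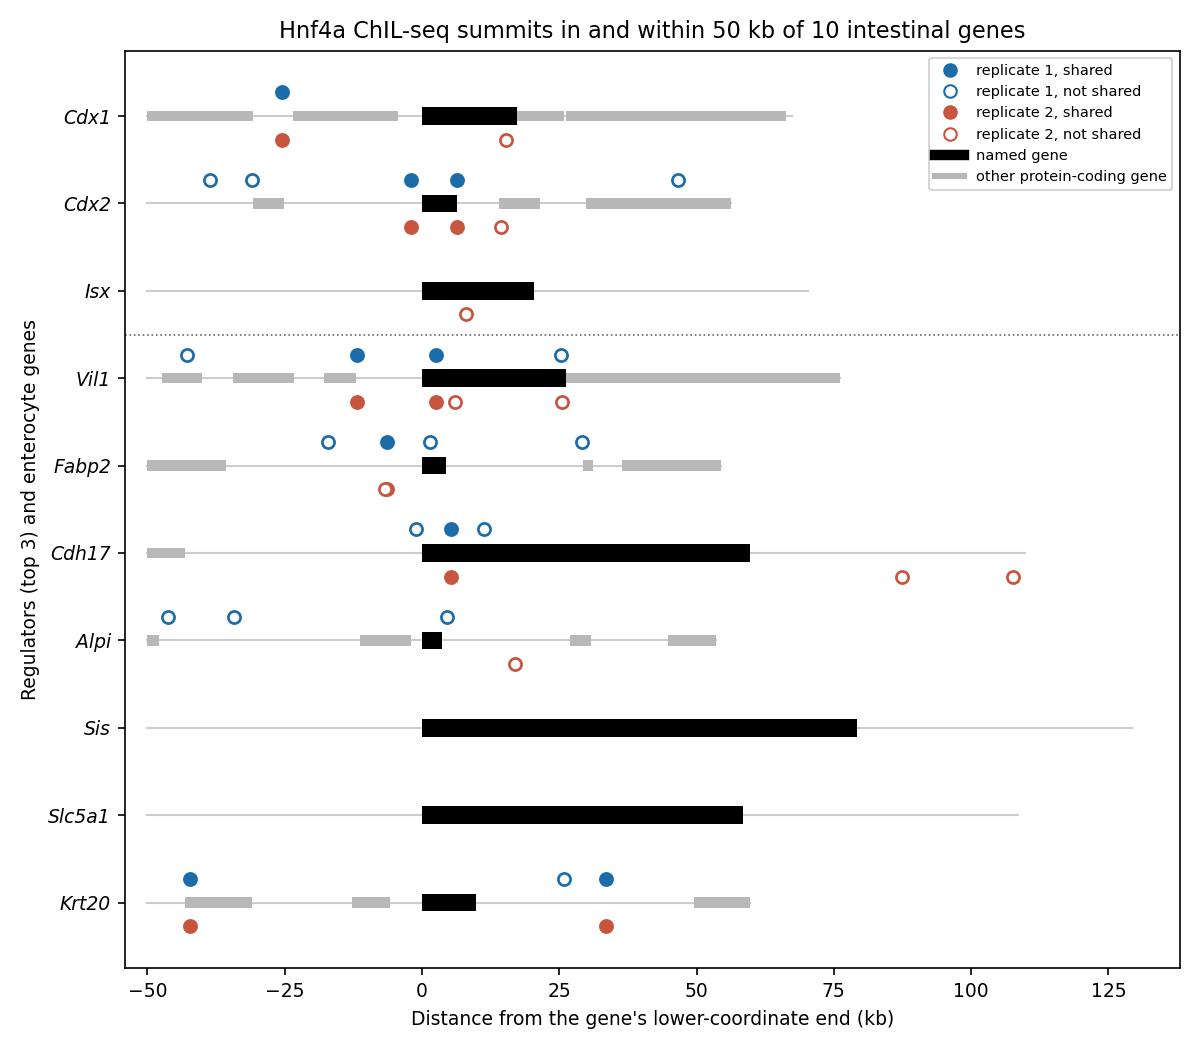
Positions of all summits in the windows of the 10 genes, as the distance in kb from each gene's lower-coordinate end. Replicate 1 circles lie above and replicate 2 circles below each line, filled where shared, with the named gene in black and other protein-coding genes in grey. The filled circles at both ends of Cdx2, inside Vil1 and inside Cdh17 sit at the genes themselves, while those of Cdx1 and Krt20 lie over 20 kb away and the lines of Sis and Slc5a1 are empty.

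Among enterocyte genes, Vil1 and Fabp2 had pairs at or near the gene with high replicate 1 scores. Vil1 encodes villin, an actin-bundling protein of the microvilli, and spans 74409384 to 74435560 on chromosome 1. Its intragenic pair, at 74411869 in replicate 1 and 74411907 in replicate 2, lay 2485 and 2523 bp after the start and scored 20.6 and 6.77. These scores were in the top 5.30% of replicate 1 but only the top 48.9% of replicate 2, so the replicates ranked this site differently. Its other pair lay 11781 and 11870 bp before the start and scored 9.08 in replicate 1 and 3.86 in replicate 2. This pair was 318 and 229 bp from Ctdsp1, a phosphatase gene, which is the nearer gene. Near the 3′ end of Vil1 the replicates had summits of 4.48 and 7.81 that were 153 bp apart, just outside the limit for sharing, and replicate 2 alone had a summit 6011 bp after the start (6.97).

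Fabp2 encodes the intestinal fatty acid binding protein and spans 122895072 to 122899506 on chromosome 3. The shared pair lay upstream of it, at 122888638 in replicate 1 and 122888613 in replicate 2, 6434 and 6459 bp before the start. It scored 22.7 in replicate 1 and 11.4 in replicate 2, in the top 4.02% and 18.7% of the lists. Fabp2 was the nearest protein-coding gene. A further replicate 2 summit of 8.80 lay 6819 bp before the start, 385 bp from the replicate 1 summit of the pair. Replicate 1 alone had a summit inside Fabp2 (4.78), another 17107 bp upstream (5.64) and another 164 bp before the start of 1810037I17Rik (8.15).

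Cdh17, the liver-intestine cadherin of the enterocyte's lateral membrane, had a pair inside the gene. The gene spans 11758157 to 11817905 on chromosome 4. The summits lay at 11763436 in replicate 1 (10.7) and 11763403 in replicate 2 (7.43), 5279 and 5246 bp from the gene's lower-coordinate end. Both scores were above the medians of their lists, but in replicate 2 below 9.61, the median of all shared pairs. Replicate 1 alone had a summit 1030 bp outside that end (5.19) and another 11253 bp inside it (6.24). Replicate 2 alone had summits 27.6 and 47.9 kb beyond the other end, both with low scores (3.19 and 3.15).

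Krt20, a keratin of differentiated enterocytes and goblet cells, had the highest pair score in each replicate among the 10 genes. These scores were at different pairs, and neither pair was close to the gene. The gene spans 99428385 to 99438153 on chromosome 11, in a cluster of keratin genes. A pair at 99461840 in replicate 1 and 99461872 in replicate 2 lay 23687 and 23719 bp before its start and scored 25.3 and 15.4. By gene span it was closer to Krt23, a keratin of several epithelia, at 16133 and 16101 bp. Of the gene starts in the table used here, that of Krt20 was the nearest to it. The other pair, at 99386049 and 99386093, lay inside Krt10, the keratin of upper epidermal layers, 42336 and 42292 bp from Krt20, and scored 17.3 in replicate 1 and 22.3 in replicate 2. Both pairs were in the top 10% of both lists. Without the 2 pairs that by gene span lay nearer to or inside another keratin gene, Krt20 would have no shared pair.

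Alpi, Sis and Slc5a1, which encode proteins of the brush border membrane, had no shared pair. Alpi, the intestinal alkaline phosphatase gene at 87098002 to 87101606 on chromosome 1, had 3 summits in replicate 1 and 1 in replicate 2. The nearest, in replicate 1 only, was 899 bp before the start (5.41), outside the promoter window printed above. The replicate 2 summit lay 13396 bp before the start of Alpi (5.78), between it and Akp3, another alkaline phosphatase gene. The nearest shared pair was 77.6 kb away in Dis3l2 and scored 33.4 in replicate 1 and 26.2 in replicate 2. Sis, which encodes sucrase-isomaltase and spans 72888557 to 72967863 on chromosome 3, had the widest window, 179.3 kb. Its nearest summits were 660.8 kb away in replicate 1 (4.69) and 405.6 kb away in replicate 2 (2.25). Slc5a1, the sodium-glucose cotransporter gene at 33104219 to 33162699 on chromosome 5, had its nearest summits just outside the 50 kb limit, a shared pair at 56.1 kb that scored 6.52 and 8.51. Sis therefore lay in a long stretch without summits, while for Slc5a1 the limit decided the count.

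**Figure D2:**
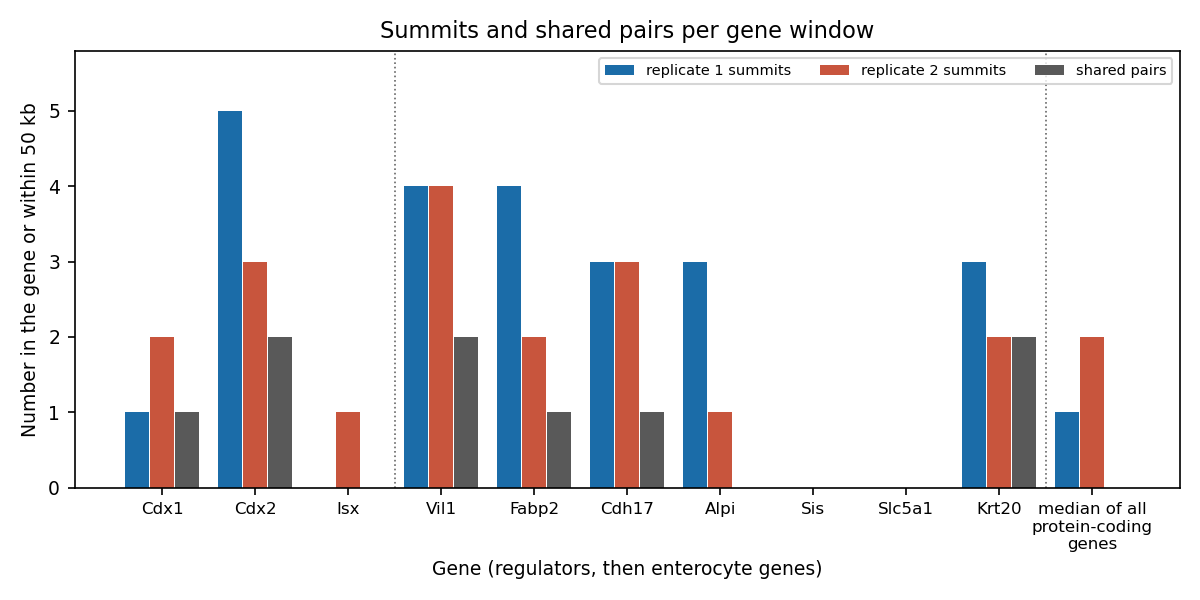
Number of summits in replicate 1, in replicate 2 and of shared pairs in each gene's window, with the median over all 21887 protein-coding genes at the right. Cdx2 has 5, 3 and 2, Vil1 has 4, 4 and 2, and Sis and Slc5a1 have none, against medians of 1, 2 and 0.

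A window without any summit was found for 2 of the 10 genes, against 20.6% of all protein-coding genes. The windows of Sis and Slc5a1 were long, however, and of the 2516 genes with windows of 150 to 200 kb, 10.2% had no summit. Replicate 1 had a summit for 7 of the 10 genes and 70.2% of all genes, and replicate 2 for 8 of the 10 and 73.4% of all genes. Summits of both replicates without a shared pair occurred for Alpi alone, against 16.3% of all genes. At least 2 shared pairs occurred for Cdx2, Vil1 and Krt20, 3 of the 10, against 20.9% of all genes.

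Nearer to the genes, pairs within 10 kb were found for Cdx2, Vil1, Fabp2 and Cdh17, 4 of 10 genes, against 26.0% of all genes. A pair inside the gene was found for Vil1 and Cdh17, 2 of 10, against 13.5%. Of the 9 pairs, 5 had the named gene as their nearest protein-coding gene, 2 at Cdx2 and 1 each at Vil1, Fabp2 and Cdh17. The remaining 4 were by gene span nearer to or inside Slc6a7, Ctdsp1, Krt10 and Krt23. The pair nearer to Krt23 had the start of Krt20 as its nearest start. Counts over 10 genes are small, and no test was made on them since the genes were chosen with earlier results of these data known.

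Regulators (2 of 3 genes with a pair) and enterocyte genes (4 of 7) overlapped in the scores of their pairs. The 3 regulator pairs scored 6.94 to 12.8 in replicate 1 (median 7.39) and 7.85 to 10.1 in replicate 2 (median 8.08). The 6 pairs of enterocyte genes scored 9.08 to 25.3 in replicate 1 (median 18.9) and 3.86 to 22.3 in replicate 2 (median 9.43). In replicate 1 the 4 highest scores were all in windows of enterocyte genes. Of these, 2 were the Krt20 pairs, by gene span nearer to or inside another keratin gene. The higher of them had the start of Krt20 as its nearest start. In replicate 2 windows of enterocyte genes held both the lowest score, beside Ctdsp1, and the highest, inside Krt10. Of the regulator pairs, that of Cdx1 was nearer to Slc6a7. The pair at the start of Cdx2 exceeded 2 of the enterocyte pairs in replicate 1. Regulator windows held 6 summits in each replicate over 344 kb, and enterocyte windows held 17 in replicate 1 and 12 in replicate 2 over 941.5 kb. The difference between the sets was not tested, because genes are not replicates of a condition.

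**Figure D3:**
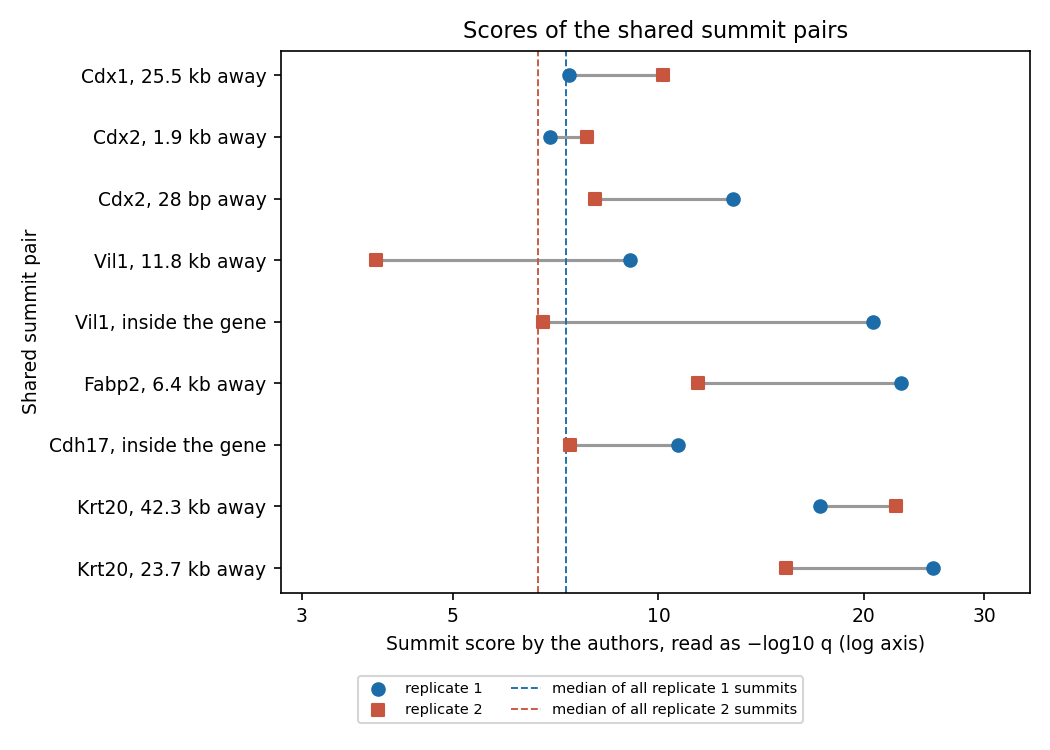
Scores of the 9 shared pairs on a log axis, with replicate 1 as blue circles, replicate 2 as red squares and dashed lines at the medians of both whole lists (7.32 and 6.67). Distances are those of the replicate 1 summit from the named gene. The pairs of Fabp2 and Krt20 lie right of both medians by the most in replicate 2, and the pair inside Vil1 has the widest spread, 20.6 against 6.77. The medians of all shared pairs, 9.93 and 9.61, are higher and not drawn.

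The summits of a pair were 8 to 89 bp apart, the closest at the far end of Cdx2 and the widest before Vil1. Of the 9 pairs, 6 scored higher in replicate 1 and 3 in replicate 2. The ratio of the replicate 1 to the replicate 2 score was above 2 for both Vil1 pairs, at 3.04 and 2.35, and within a factor of 2 for the other 7. Among all 9193 shared pairs 13.1% differed by more than 2-fold. The median score of the pairs was 12.8 in replicate 1 and 8.08 in replicate 2. The 14 replicate 1 summits without a counterpart in these windows had a median of 5.52 and reached 8.43, and the 9 of replicate 2 had a median of 4.71 and reached 8.80. Unshared summits thus had the lower medians, and their scores overlapped with those of the pairs in both replicates.

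All 10 windows together covered 1.29 Mb and held 23 summits for replicate 1 and 18 for replicate 2, a mean of 20.5 ± 3.54 (SD, n = 2). The 9 shared pairs made up 39.1% of the replicate 1 summits (95% exact binomial interval 19.7 to 61.5) and 50.0% of the replicate 2 summits (26.0 to 74.0). Over the whole lists these shares were 43.2% and 38.1%, inside both intervals, which cover counting error only. Each Mb of these windows thus held 17.9 replicate 1 summits, 14.0 replicate 2 summits and 7.0 shared pairs. In the merged windows of all protein-coding genes these densities were 10.4, 11.6 and 4.51. Those windows merge into 2988 stretches of 1687 Mb, where overlapping windows count once, while the 10 windows do not overlap. Each base and summit thus counted once on both sides, and the difference between the densities was not tested.

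Other genes of the intestinal epithelium were set beside these 10 in 6 lists with 74 genes in all, also made with earlier results known. A shared pair within 50 kb was found for 38 of them (51.4%, against 47.9% of all genes), and within 10 kb for 14 (18.9%, against 26.0%). Of 16 other intestinal regulators 7 had a pair within 50 kb and 4 within 10 kb. Creb3l3, a membrane-bound factor of liver and intestine, had its best-ranked pair 30.1 kb away, nearer to Map2k2. That pair scored 16.4 in replicate 1 and 24.6 in replicate 2. Klf4, a zinc finger factor of differentiated epithelium, had a pair 9.04 kb away (12.8 and 14.1). The best-ranked pair of Gata6, a zinc finger factor of endoderm, was 36.6 kb away (18.99 and 11.9). Prdm1, a repressor that delays adult enterocyte genes in the fetal gut, had a pair 16.7 kb away (10.04 and 13.7).

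Of all genes 47.9% had a pair within 50 kb and 26.0% within 10 kb, and differences between the small lists were not tested. Genes of brush border structure and cell junctions had the highest count among the 6 lists. They had pairs for 12 of 14 within 50 kb and 6 of 14 within 10 kb. The best-ranked pair, 41.3 kb from the epithelial keratin gene Krt8, was nearer to Krt18 (15.5 in replicate 1 and 26.4 in replicate 2). Next were Ush1c, a scaffold that links microvilli, with a pair 9381 bp away and nearer to Otog (19.7 and 13.0), and Cldn15, a claudin of the small intestine, with a pair 5572 bp away and nearer to Fis1 (13.1 and 12.3). Eps8, an actin-capping protein of microvilli, had its pair inside the gene (11.1 and 14.998). Brush border hydrolases had pairs for 6 of 10 within 50 kb but for none within 10 kb. That of the peptidase gene Ggt1 (30.0 in replicate 1 and 39.6 in replicate 2) was nearer to Gucd1. Those of the disaccharidase genes Treh (11.1 and 14.9) and Lct (8.65 and 17.1) were nearer to Phldb1 and Mcm6. Alpi and Sis, which also encode brush border enzymes, likewise had no shared pair within 10 kb.

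Within 50 kb 47.9% of all genes had a pair, and within 10 kb 26.0%. Intestinal transporters had pairs for 4 of 12 genes within 50 kb and 1 of 12 within 10 kb. The best-ranked lay 24.4 kb from Slc10a2, the ileal bile acid transporter (33.1 in replicate 1 and 32.6 in replicate 2), and that of Slc15a1, the peptide transporter, was inside the gene (11.2 and 8.76). A pair lay 22.1 kb from Slc26a3, a chloride-bicarbonate exchanger (19.6 and 9.15), and the pair 35.9 kb from Npc1l1, the cholesterol uptake protein, was nearer to Nudcd3 (9.39 and 8.96). Genes of dietary lipid and vitamin handling had pairs for 6 of 10 within 50 kb and 1 of 10 within 10 kb. Apoa1 and Apoa4 share 1 pair whose nearest gene is Sik3 (29.6 and 27.9). Apob, the structural protein of chylomicrons, had its pair 10007 bp away (14.5 and 19.1), and that of the fatty acid transporter gene Cd36 was nearer to Gnat3 (14.4 and 12.5). Genes of stem, Paneth, goblet and enteroendocrine cells had pairs for 3 of 12 within 50 kb and 2 of 12 within 10 kb. The 3 were the goblet cell gene Clca1 (21.2 and 14.5) and the stem cell genes Lgr5 (11.5 and 28.7) and Smoc2 (11.1 and 8.30). The Clca1 pair was nearer to Clca2 and the Lgr5 pair nearer to Zfc3h1. Liver and fibroblast genes were listed for comparison only as genes with or without a pair. No expression was measured, so cell identity was not tested by them. Of 6 hepatocyte markers 5 had a pair within 50 kb, all but Ttr, and of 6 fibroblast markers 1, against 47.9% of all genes. Within 10 kb 3 of 6 hepatocyte and 0 of 6 fibroblast markers had one, against 26.0% of all genes. The best-ranked pairs lay 13.1 kb from Alb (69.5 and 92.3) and 25.1 kb from Serpina1a (23.1 and 20.2). Those of Fgb (28.8 and 17.3, nearer to Fga) and Tat (11.7 and 4.23) lay 21.6 and 7.2 kb away. The fibroblast marker was Twist2, with a pair 24.5 kb away (9.93 and 12.7). Summits of replicate 1 occurred for 4 of 6 fibroblast markers and of replicate 2 for 5 of 6. All 6 hepatocyte markers had summits in each replicate. Apoa1 is in both the hepatocyte and the lipid list.

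**Figure D4:**
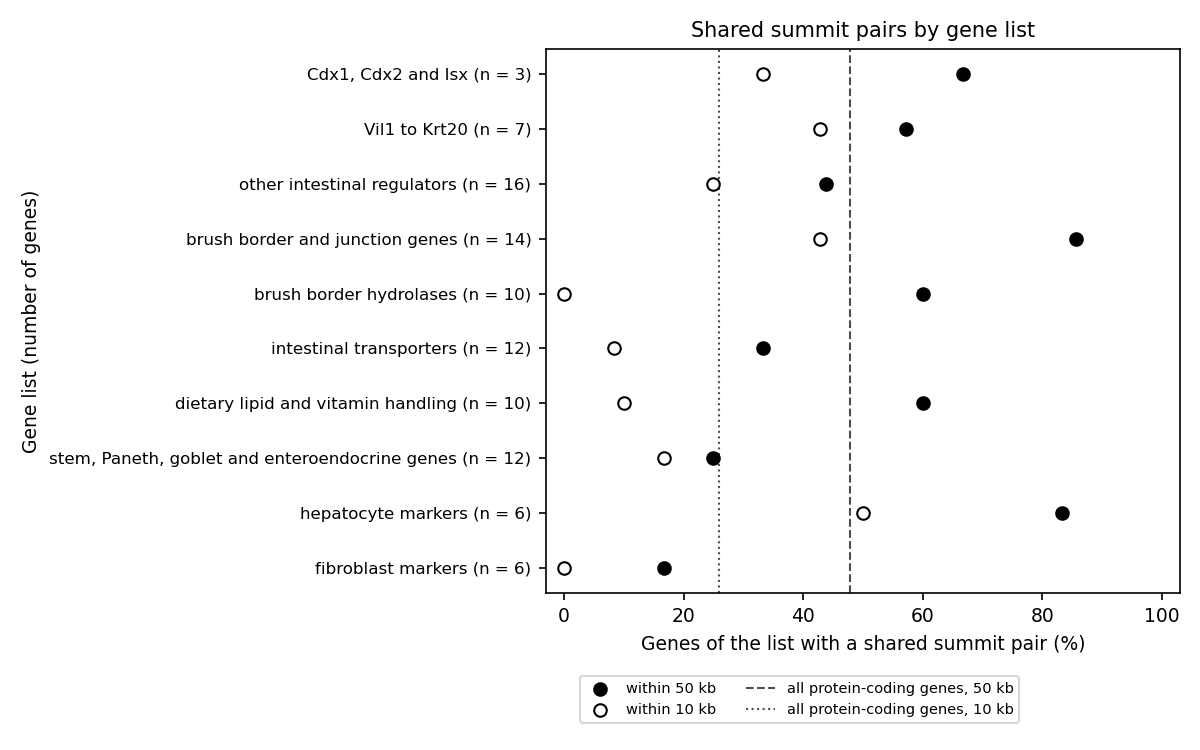
Share of genes (%) in each list with a shared pair within 50 kb (filled circles) or 10 kb (open circles), with lines at the shares of all protein-coding genes (47.9% and 26.0%). Cdx1, Cdx2 and Isx form the top row, the other 7 genes of the report the row under it. Brush border and junction genes and hepatocyte markers lie farthest right at 50 kb, and the fibroblast markers farthest left.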

How the data were processed

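ChIL-seq peak summits of 2 replicates of 1 group were used. Per the submitters' processing notes, the tools were MACS2 2.2.9.1, HISAT2 2.0.5 and fastp 0.23.4, with mm10 as the build. The deposited score of each summit was read as a −log10 q-value, which was inferred from the q threshold of 0.01 in the peak names and the lowest scores. Each library has its own list. A control library, duplicate removal and filters are not given in the sources used here. Depth is unknown, and p-values were not computed. Scores served only to describe and rank summits within a list.

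Spans of protein-coding genes were taken from a RefSeq table (GRCm38.p6, which corresponds to mm10). This table has no exons. Strand and start came from the RefSeq promoter table, which held 8 of the 10 genes, so Cdx1 and Cdh17 are given without them. Summits were paired closest first, each in at most 1 pair, and both had to lie in the window. The genes, lists and motifs were chosen with earlier results of these data known. All 10 genes and all their pairs are named, with the nearest genes of those pairs. Other listed genes were taken in the order of the worse of their pair's ranks, up to 4 per list, and 1 of these is not reported here. Shares have exact binomial intervals. Pairing and counting were tested on simulated data. Python 3.11.15, numpy 2.4.6, pandas 2.3.3, scipy 1.17.1 and matplotlib 3.10.9 were used.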

Additional observations from a re-analysis of the deposited data

How the results depend on the processing

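Each of 4 counts was recomputed under 11 alternatives. Sharing within 50, 200 or 500 bp and scores of 5 or more kept the same 6 genes, with 8 to 10 pairs. In these settings, in this order, 38.4%, 52.8%, 54.5% and 43.9% of all genes had a pair. A 10 kb flank left 1 regulator and 5 pairs, as did counting only pairs whose nearest gene is the named gene, and in both settings the genes were Cdx2, Vil1, Fabp2 and Cdh17, where 26.0% and 23.6% of all genes had a pair. A 100 kb flank gave 18 pairs and added Alpi and Slc5a1, for 8 of 10 genes, while the share of all genes grew to 62.6%. Scores of 10 or more in both replicates left 2 genes, Fabp2 and Krt20, with 0 regulators, 2 enterocyte genes and 3 pairs, where 22.0% of all genes had a pair. The 10000 best summits of each list left 3 genes, Cdx2, Fabp2 and Krt20, as 1 regulator and 2 enterocyte genes with 4 pairs, against 32.0% of all genes. With 1 replicate left out the count is of all summits of the other, which needs no counterpart, and was 18 without replicate 1 and 23 without replicate 2. No paired analysis was possible because there is 1 group. Regulator counts over 3 genes change with any single gene.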
